A study of Rattus norvegicus with 12 samples.

Results

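The genes described here are 8 transcripts that are made mainly in developing red blood cells, read in the ventricular free walls of newborn rats. They are Hba1 and Hba2 (alpha globin), Hbb and Hbb-b1 (beta globin), Alas2, Slc4a1, Ahsp and Epb42. They were chosen by name, and all 8 were found among the 32545 genes of the deposited table. Sprague–Dawley rats (strain label SD) received either a fistula between the abdominal aorta and the inferior vena cava, which overloads both ventricles with volume (VO), or a sham operation, both at P1. LV and RV free walls were taken at P7, which gave 4 groups of 3 libraries, the LV and the RV of sham and of VO animals. No animal carried a transgene or a deleted gene by the labels, and the labels do not say which libraries came from the same animal. The study compared the 2 ventricles at baseline and asked how each responds to VO.

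Red cells lose their nucleus before they mature, and reticulocytes, the youngest circulating red cells, still carry messenger RNA. Each hemoglobin molecule joins alpha and beta globin chains around heme. Heme synthesis in these cells begins with Alas2, free alpha chains are held by the chaperone Ahsp, and the membrane is anchored by the anion exchanger band 3 (Slc4a1) and protein 4.2 (Epb42). Heart muscle cells are not a known source of these transcripts at such levels, so in a piece of ventricle they are usually read as a trace of the blood it holds.

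That property sets a limit on every comparison given here. A wall that held more blood, blood richer in reticulocytes, and more globin RNA per cell would all raise the same values, and bulk RNA cannot tell fewer cells from less RNA per cell. The amount of blood left in each sample and an effect of the fistula cannot be told apart by this design, because no source used here gives a blood volume, a reticulocyte count or a rinse of the tissue. P values measure the spread between libraries, which the labels do not tie to separate animals.

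Globin transcripts were among the most abundant in these walls. Levels are given as FPKM (fragments per kilobase of transcript, scaled to sequencing depth), a unit per gene length, so that genes can be compared within it. Hba1 ranked between 6 and 15 among all genes of a library, Hba2 between 16 and 26, and Hbb between 14 and 48. The 12 genes described as hemoglobin or globin alpha together took 0.448% to 1.39% of the reads on genes, of which each library had 14121713 to 16871371, and 1.17% to 3.46% of the summed FPKM. Against Mb, the myoglobin gene of the muscle cells themselves, Hba1 stood at 0.649 to 1.44 times its FPKM.

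Among the 8 genes the order of mean FPKM over the 12 libraries was Hba1 (6346), Hba2 (3175), Hbb (2262), Hbb-b1 (48.7), Alas2 (32.03), Ahsp (10.2), Slc4a1 (4.80) and Epb42 (0.738). Each neighbour in this order exceeded the next within all 12 libraries, except Hba2 and Hbb, where 1 library (sham LV replicate 2) had more Hbb. Across libraries the ranges of neighbours overlapped for Hba1 and Hba2, Hba2 and Hbb, Hbb-b1 and Alas2, and Ahsp and Slc4a1 (as unpaired ranges). The counting error differs as much as the levels. Hba1 had 29722 to 75689 reads in a library, Slc4a1 184 to 512, Ahsp 22 to 136 and Epb42 only 21 to 65. Epb42 is therefore the least precisely measured of the 8.

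The alpha globin genes lie on chromosome 10 and the beta globin genes on chromosome 1, in 2 separate clusters. Hba1 (ENSRNOG00000029886) is listed at 15602794 to 15603649 and Hba2 (ENSRNOG00000047321) at 15589364 to 15590220, both on the minus strand. Hbb (ENSRNOG00000058105) is listed at 168971274 to 168972725 on the minus strand of chromosome 1. Positions are those of the deposited table, whose genome build is not given in the sources used here. The stretch just before the start site is printed here as a description of the alpha copies and Hbb. A link between this sequence and the levels was not tested. RefSeq start sites on GRCr8 were found for 6 of the 8 genes, under the symbols Hba-a1 for Hba1 and Hba-a2 for Hba2. Shown are the 180 bases before the start site, 5′ to 3′, on the minus strand at chr10:15842581-15842760 (Hba1), chr10:15829139-15829318 (Hba2), chr10:15816944-15817123 (the third alpha-type gene, LOC287167, in RefSeq Hba-a3) and chr1:167663722-167663901 (Hbb). Capitals mark GATAA (the core that GATA factors read), the CACCC letters that Klf1 and its relatives read, the CCAAT box and the TATAA core of the TATA box, each on either strand.
Hba1: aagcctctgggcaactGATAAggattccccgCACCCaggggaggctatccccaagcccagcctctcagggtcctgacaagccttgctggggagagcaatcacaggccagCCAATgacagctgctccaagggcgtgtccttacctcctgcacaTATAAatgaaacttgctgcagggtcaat
Hba2: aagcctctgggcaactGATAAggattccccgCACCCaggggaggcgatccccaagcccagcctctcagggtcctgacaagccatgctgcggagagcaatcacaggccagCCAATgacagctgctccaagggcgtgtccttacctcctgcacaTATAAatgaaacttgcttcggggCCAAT
LOC287167: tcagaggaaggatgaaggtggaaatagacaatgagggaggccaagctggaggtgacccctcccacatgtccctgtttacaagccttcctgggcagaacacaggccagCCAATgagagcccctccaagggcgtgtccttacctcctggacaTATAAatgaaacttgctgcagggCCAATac
Hbb: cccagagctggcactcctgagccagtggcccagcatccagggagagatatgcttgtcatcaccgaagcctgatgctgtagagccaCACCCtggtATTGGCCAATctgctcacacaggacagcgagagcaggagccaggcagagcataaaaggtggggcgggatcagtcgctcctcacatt

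Hba1 and Hba2 differed at 6 of these 180 bases and shared each of the 4 motifs in it at equal distances, from 164 bases before the start for GATAA to 28 bases for TATAA. Hba2 held a further CCAAT in its last 5 bases. In the 250 bases before its start LOC287167 held 2 CCAAT and 1 TATAA but no GATAA or CACCC on either strand. Aligned with a shift of 2 bases, it matched Hba1 at 87 of the 120 bases nearest the start. Hbb held CACCC followed by 2 CCAAT boxes side by side on opposite strands, and no GATAA or TATAA. No match overlapped another. Such letters are common, since 23.5% of the 33469 promoters held GATAA, 49.2% held CACCC, 34.0% held CCAAT and 24.0% held TATAA, searched over the 250 bases before the start, so a match is a description of the sequence and not evidence of binding. The transcripts of the copies were not compared here. Reads of Hba1 and Hba2 may be shared between them, and how reads with several matches were counted is not stated. The split between Hba1 and Hba2 is thus uncertain, while their sum is less so. Epb42 held none of the 4, and RefSeq's Hbb-b1 and Alas2 lie on the other strand from the genes of those names in the table, so their promoters are not described. Ahsp and Slc4a1 were not in the table of promoters.

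At baseline all 8 genes had a higher mean in sham LV than in sham RV. Hba1 was 7508, 8396 and 7750 FPKM in the 3 sham LV libraries and 5015, 3766 and 5926 in the 3 sham RV libraries. Every sham LV library was above every sham RV library. The means were 7884 ± 459 and 4902 ± 1084 FPKM (SD, n = 3). On the log2(FPKM + 0.5) scale the difference was 0.71 (SE 0.30, limma, adjusted p = 0.168 over 13910 genes).

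**Figure D1:**
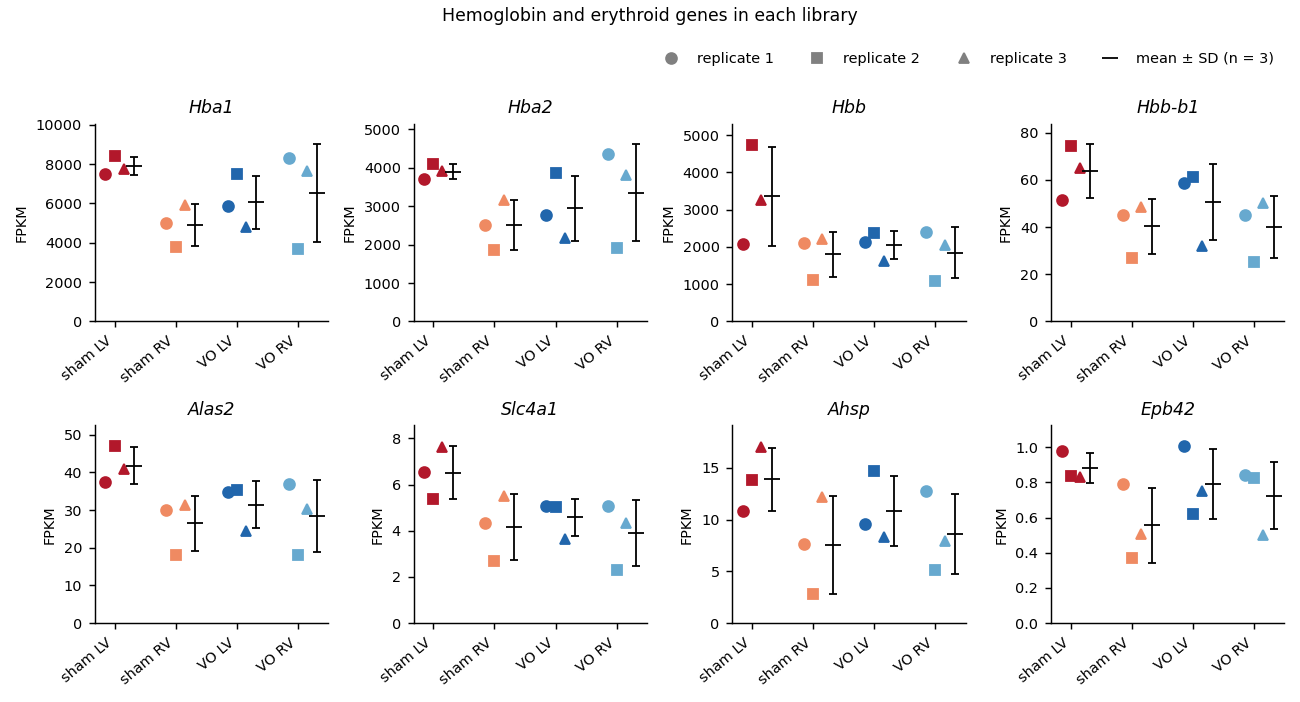
FPKM of each of the 8 genes (1 panel each, own axis from 0) in the 12 libraries, by group; circles, squares and triangles are replicates 1, 2 and 3, and bars are mean ± SD (n = 3). In Hba1 the sham LV points lie at 7508 to 8396, above all sham RV points, while replicate 2 of both RV groups is low in most panels.

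Hba2 read 3712, 4086 and 3908 FPKM in sham LV and 2499, 1853 and 3158 in sham RV, again without overlap. Hbb was 2069, 4730 and 3263 FPKM in sham LV against 2103, 1110 and 2199 in sham RV. Its means of 3354 ± 1333 and 1804 ± 603 FPKM differed by 0.88 on the log2 scale (SE 0.37), but sham LV replicate 1 lay below 2 of the sham RV libraries. Hbb-b1 was 51.5, 74.4 and 65.0 FPKM in sham LV and 45.3, 26.8 and 48.7 in sham RV, without overlap.

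The genes that serve the globins went the same way. Alas2, the erythroid form of the first enzyme of heme synthesis, was 37.3, 47.1 and 40.8 FPKM in sham LV and 30.1, 18.0 and 31.2 in sham RV, and its groups did not overlap. Its log2 difference of 0.68 (SE 0.27) had the smallest adjusted p of the 8 genes, at 0.141 by limma. Ahsp was 10.9, 13.8 and 17.0 FPKM in sham LV and 7.61, 2.78 and 12.2 in sham RV. Its log2 difference was the largest of the 8 at 1.02 (SE 0.45), and its groups overlapped.

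Of the membrane proteins, Slc4a1 read 6.56, 5.37 and 7.64 FPKM in sham LV and 4.35, 2.68 and 5.51 in sham RV, overlapping in 1 pair of libraries. Epb42 was 0.98, 0.83 and 0.83 FPKM in sham LV and 0.79, 0.37 and 0.51 in sham RV. It had the smallest log2 difference, 0.40 (SE 0.22), a value that the added 0.5 shrinks at so low a level.

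Counted together, 0 of the 8 genes were DEGs (adjusted p under 0.05 and fold change over 1.3) between sham LV and sham RV by limma, where 3.86% of all tested genes were. At an unadjusted p under 0.05 with the same fold change, 5 of 8 were higher in the LV (Hba1, Hbb, Alas2, Ahsp and Slc4a1), beside 8.19% of all tested genes that were higher and 9.63% that were lower. With voom on the recovered reads, 0 were DEGs and all 8 passed the unadjusted limit. The groups did not overlap for 5 of 8 (Hba1, Hba2, Hbb-b1, Alas2 and Epb42), beside 15.6% of all tested genes higher and 16.6% lower in the LV without overlap. The median log2 difference of the 8 was 0.68, against 0.01 over all tested genes. The 8 genes are not independent of each other, since all but Epb42 rose and fell together across the libraries. A two-sided exact permutation test on the FPKM gave 0.10 for each of the 5 genes without overlap, which is the smallest p that 3 libraries against 3 allow, 0.20 for Slc4a1 and Ahsp, and 0.30 for Hbb.

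The size of this difference depended on sham RV replicate 2. Without it, the median log2 difference fell to 0.45, all 8 genes remained higher in the LV, and 0 passed the unadjusted limit. That count was also sensitive to other libraries, being 1 without sham LV replicate 2 or 3, 2 without VO LV replicate 1, and 3 without sham RV replicate 1 or VO RV replicate 3. It was 7 without sham RV replicate 3 (median 0.85) or VO RV replicate 2, and 6 without VO RV replicate 1. It was 1 without a filter on low genes and 8 with array weights.

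**Figure D2:**
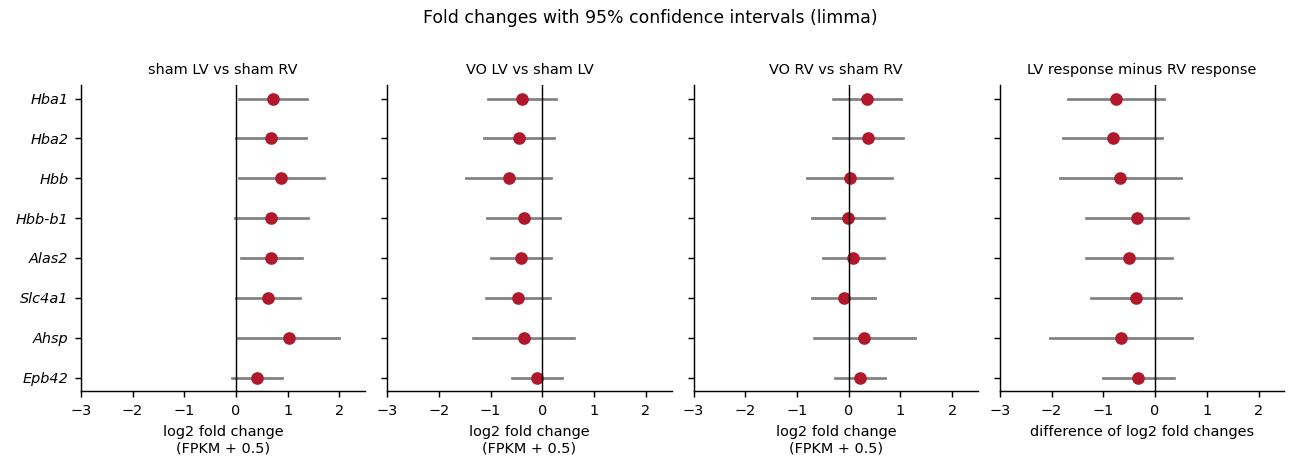
Log2 fold changes of the 8 genes (points) with 95% confidence intervals (lines) in 3 comparisons, and the difference of the LV and RV responses in the last panel. All 8 points lie above 0 for sham LV against sham RV and below 0 for VO LV against sham LV and for the difference of responses, and only in the first panel do intervals (those of 5 genes) leave out 0.

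After VO, the LV means of all 8 genes were lower than in sham LV, but no gene was a DEG. Hba1 was 5892, 7476 and 4802 FPKM in VO LV, a mean of 6057 ± 1345 (SD, n = 3), and every VO LV library lay below the lowest sham LV library, replicate 2 by a small margin (7476 against 7508). Its log2 fold change was −0.40 (SE 0.30, 95% interval from −1.06 to 0.26, adjusted p = 0.437 by limma). Hba2 was 2776, 3862 and 2182.3 FPKM, and VO LV replicate 2 overlapped the sham LV range.

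Hbb had the largest fold change in the LV, −0.65 on the log2 scale (SE 0.37, adjusted p = 0.314 by limma). It was 2137, 2365 and 1630 FPKM in VO LV, a narrower spread than in sham LV, where 2069 to 4730 were read. The sham libraries thus overlapped the VO libraries through sham LV replicate 1. Hbb-b1 was 58.9, 61.1 and 32.02 FPKM and overlapped sham LV.

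Alas2 was 34.8, 35.2 and 24.3 FPKM and Slc4a1 5.08, 5.02 and 3.64 FPKM in VO LV, in both cases below all sham LV libraries. Their log2 fold changes were −0.41 (SE 0.27) and −0.47 (SE 0.28). Ahsp was 9.55, 14.7 and 8.31 FPKM and Epb42 1.01, 0.62 and 0.75 FPKM, and both overlapped sham LV. Epb42 moved least, with a log2 fold change of −0.10.

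In this comparison 0 of 8 genes were DEGs, where 0.0935% of all tested genes were, and 0 passed the unadjusted limit in limma or in voom, beside 6.44% of all tested genes that were lower and 9.27% that were higher. The count was 2 in a fit of these 2 groups alone (smallest adjusted p 0.170 by limma) and 1 without sham LV replicate 1. The groups did not overlap for 3 of 8 (Hba1, Alas2 and Slc4a1), all lower, beside 15.7% of all tested genes lower and 16.7% higher without overlap. The median log2 fold change was −0.41, against −0.02 over all tested genes. It was −0.24 without VO LV replicate 3 and −0.55 without VO LV replicate 2, with all 8 lower in both cases. This comparison shares the sham LV libraries with the baseline comparison, so that high sham LV values enter both.

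In the RV the libraries disagreed after VO. Hba1 was 8310, 3678 and 7634 FPKM in VO RV, so that replicates 1 and 3 lay above every sham RV library and replicate 2 below all of them. Hba2 was 4346, 1922 and 3799 FPKM, with replicates 1 and 3 again above every sham RV library. The log2 fold changes against sham RV were 0.36 (SE 0.30) and 0.37 (SE 0.31).

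Hbb was 2405, 1078 and 2063 FPKM in VO RV, and Hbb-b1 45.3, 25.1 and 50.1 FPKM, and the fold changes of both were close to 0 (0.02 and −0.02). Alas2 was 36.9, 18.2 and 30.4 FPKM, Slc4a1 5.07, 2.29 and 4.34 FPKM, and Ahsp 12.8, 5.11 and 7.97 FPKM. Replicate 2 was the lowest VO RV library for each of these. Epb42 alone did not follow, with 0.84, 0.82 and 0.50 FPKM.

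Of the 8 genes, 6 had a higher and 2 a lower mean log2 level in VO RV than in sham RV, with a median fold change of 0.16 on the log2 scale, and in all 8 the groups overlapped, while 5.64% of all tested genes were higher and 6.87% lower without overlap. None was a DEG by limma (adjusted p from 0.736 to 0.994), where 0% of all tested genes were. At the unadjusted limit 0 passed in limma or voom, beside 1.85% of all tested genes higher and 3.06% lower. For Hbb, Hbb-b1, Alas2, Slc4a1 and Ahsp the direction turned when single libraries were left out. VO RV replicate 2 held transcripts of the atrium, with a summed FPKM of 5 atrial muscle genes of 4559, against 249.98 and 311 in the other VO RV libraries, and sham RV replicate 1 held 1065 against 212 and 303. The sum was also 706 to 1156 in sham LV and 893 to 1729 in VO LV, mostly from Nppa. The atrial genes Sln (97.7 and 388 FPKM) and Bmp10 (12.6 and 72.4 FPKM) set sham RV replicate 1 and VO RV replicate 2 apart, with at most 0.678 and 0.152 FPKM in the other 10 libraries. VO RV replicate 2 also had a fibroblast marker sum of 4935 FPKM against 2533 and 3045 in the other VO RV libraries, a cardiomyocyte sum of 20617 against 29561 and 28654, and 4121 FPKM of Mb against 6967 and 6015. Without both, all 8 genes were higher in VO RV (median log2 fold change 0.50), 2 passed the unadjusted limit and 0 were DEGs. Without VO RV replicate 2 alone the median was 0.37, with all 8 higher and 2 past the unadjusted limit. Without sham RV replicate 2, which held the fewest erythroid transcripts of the sham libraries but little atrial RNA, 5 of 8 were lower and the median was −0.20. Without VO RV replicate 1, 5 of 8 were lower (median −0.069), and without sham RV replicate 3 all 8 were higher (median 0.21). The part of atrial or other tissue in the low values of VO RV replicate 2 was not tested.

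Between VO LV and VO RV, 6 of the 8 genes had a higher and 2 a lower mean log2 level in the LV, with log2 differences from −0.15 (Hba2) to 0.36 (Ahsp) and a median of 0.19. None was a DEG by limma, where 0.00719% of all tested genes were, and none passed the unadjusted limit in limma or voom, beside 3.85% of all tested genes higher and 3.56% lower. The groups overlapped for all 8, where 8.45% of all tested genes were higher and 7.69% lower without overlap. Without VO RV replicate 2, 5 of 8 were lower in the LV and the median was −0.07. Without VO LV replicate 3 or VO RV replicate 1 all 8 were higher, with medians of 0.36 and 0.41. Averaged over both ventricles, VO against sham gave 0 DEGs among the 8, where 0.0144% of all tested genes were, and 0 past the unadjusted limit in limma or voom, beside 0.841% higher and 0.748% lower.

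For all 8 genes the log2 fold change with VO was smaller or more negative in the LV. The LV minus RV difference of the log2 fold changes was −0.82 for Hba2 (SE 0.44, adjusted p = 0.262), −0.76 for Hba1 (SE 0.42), −0.67 for Hbb (SE 0.53) and −0.51 for Alas2 (SE 0.38), by limma. It was −0.66 for Ahsp, −0.37 for Slc4a1, −0.35 for Hbb-b1 and −0.32 for Epb42. None was a DEG, where 4.19% of all tested genes were, and none passed the unadjusted limit in limma or voom, beside 9.94% of all tested genes with a lower and 13.1% with a higher LV response. The count was 2 with array weights (median −0.69, smallest adjusted p 0.125 by limma), and 1 with quantile normalization or without VO LV replicate 2. Without VO RV replicate 2 the median moved from −0.58 to −0.88, 3 genes passed the unadjusted limit and the smallest adjusted p was 0.0510. Without sham RV replicate 2 the median was −0.22, and without VO RV replicate 1 it was −0.32. Without both RV libraries with atrial RNA it was −0.98, with 3 genes past the unadjusted limit.

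**Figure D3:**
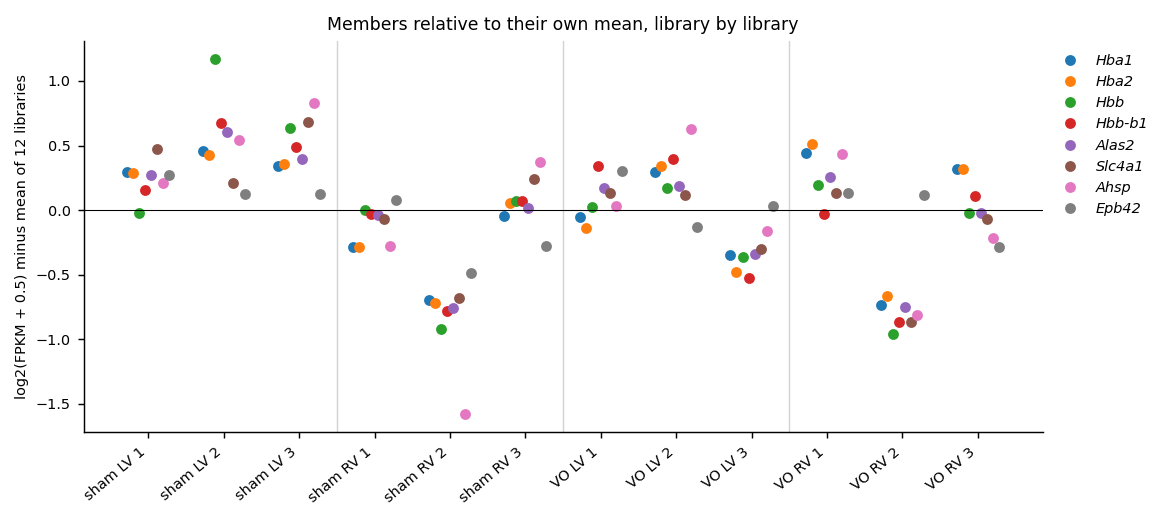
Log2(FPKM + 0.5) of each of the 8 genes minus its own mean over the 12 libraries, by library (x axis), 1 colour per gene. In most libraries the 8 points lie close together, at or above 0 in sham LV apart from a value of Hbb just below it, and lowest in replicate 2 of sham RV and VO RV; Epb42 departs from the others in VO RV replicate 2.

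Across the 12 libraries the members other than Epb42 rose and fell together. Each gene was lowest in replicate 2 of sham RV (4 genes) or of VO RV (4 genes). Sham LV replicate 2 held the highest value of 4 genes and sham LV replicate 3 that of 2. Pearson's r between log2 levels, given as a description of libraries that share group, depth and scaling, was 0.99 for Hba1 with Hba2, whose reads may be shared, and 0.81 to 0.96 for all other pairs without Epb42. Epb42 stood at 0.25 to 0.47 with the other 7.

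Some proportions within the set varied little. Hba1 was 1.88 to 2.20 times Hba2 in every library, while Hba1 itself ranged over 2.28 times. Alas2 was 1.93 to 2.72 FPKM per 1000 FPKM of hemoglobin genes. Slc4a1 was 0.257 to 0.432 per 1000, and Ahsp 0.490 to 1.46 per 1000 FPKM of alpha-type genes, the lowest in sham RV replicate 2.

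The ratio of alpha-type to beta-type transcripts was 1.52 to 2.64 in sham LV, 2.14 to 2.84 in sham RV, 2.20 to 2.52 in VO LV and 2.63 to 2.87 in VO RV. The 2 lowest values, 1.52 and 1.93, were sham LV replicates 2 and 3, in which Hbb was highest. All 3 VO RV libraries were above all VO LV libraries, whereas the other groups overlapped.

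**Figure D4:**
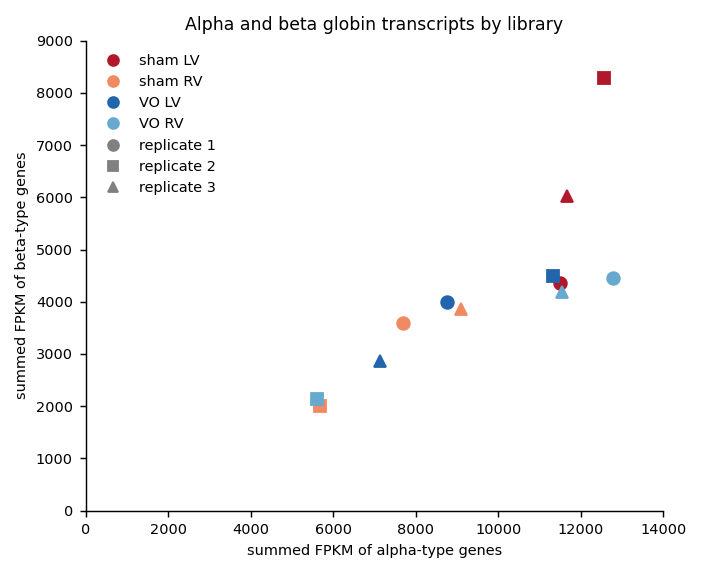
Summed FPKM of the beta-type genes against the summed FPKM of the alpha-type genes, 1 point per library, coloured by group and shaped by replicate. Alpha-type transcripts ranged from 5600 to 12788 FPKM, and sham LV replicate 2, with 8286 FPKM of beta-type transcripts, lies above the other 11.

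The levels listed for other globin genes of the table ranged widely, with the same limit that reads of similar copies may be shared. AC113925.2, described as hemoglobin subunit beta-2, had 818 to 3109 FPKM, and Hbb was 0.969 to 1.62 times its level, lower in 1 library only (sham LV replicate 1). It lies within the span listed for Hbb-b1 on the same strand, so that reads of the 2 cannot be assigned with confidence. It was 2134, 3109 and 2481 FPKM in sham LV and 1299, 818 and 1460 in sham RV, without overlap, and the log2 difference was 1.13 (SE 0.31, adjusted p = 0.0620 by limma). Over the alternatives its adjusted p ran from 0.0239 to 0.189, and it was a DEG with array weights, with voom and without VO RV replicate 2. For the difference of responses (−1.13, SE 0.44, adjusted p = 0.140 by limma) the range was 0.0485 to 0.302, and it was a DEG only without VO RV replicate 2. In VO LV it was 1654, 1893 and 1101 FPKM, a log2 fold change of −0.75 (SE 0.31, adjusted p = 0.181). A second beta-2 entry on the unplaced contig AABR07024041.1 had 43.1 to 373 FPKM. The theta-type gene Hbq1b had 2.12 to 8.14 FPKM. The embryonic genes Hbe1, Hbe2, Hbg1 and Hbz had at most 0.510 FPKM in any library.

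LOC287167, described as globin alpha, behaved unlike the other copies. In the LV it was 284, 80.5 and 1.35 FPKM in sham replicates 1, 2 and 3 and 99.8, 0.983 and 152 FPKM in VO replicates 1, 2 and 3. In the RV it was 174, 55.3 and 6.28 FPKM in sham and 131, 0.390 and 103 FPKM in VO. The ranges of all groups overlapped, and the spread within each group was far wider than any difference between groups. The low libraries, with 3 to 40 reads on the gene, were those numbered 3 in both sham ventricles and 2 in both VO ventricles.

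**Figure D5:**
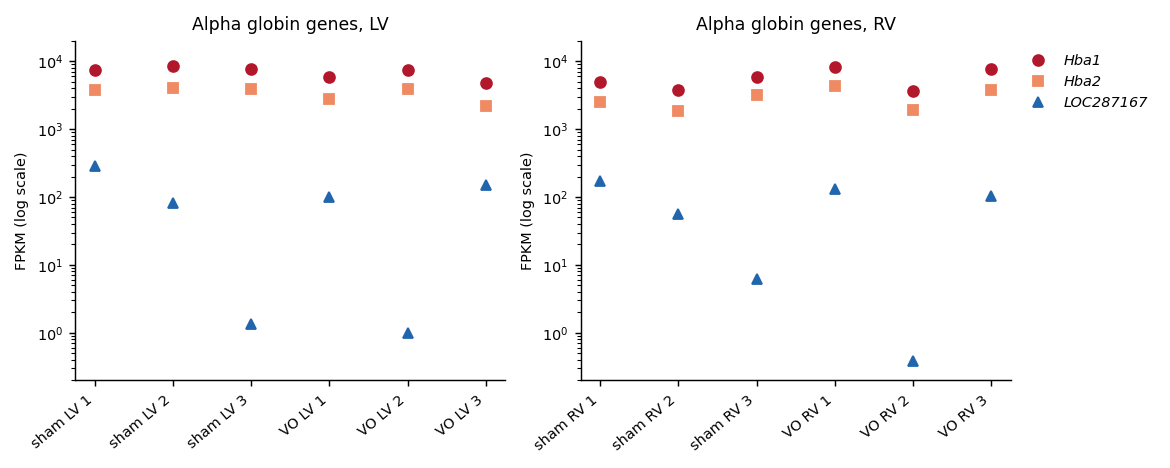
FPKM (log axis) of the alpha-type genes Hba1, Hba2 and LOC287167 in each library, LV on the left and RV on the right. Hba1 and Hba2 stay within 1853 to 8396 FPKM, while LOC287167 falls from 284 to under 7 in sham replicate 3 and under 1 in VO replicate 2 of both ventricles.

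The lists of the wider erythroid program, which include genes also made in other cells, were less uniform than the 8 genes. Of 12 heme synthesis genes, most of which every cell uses, 7 had a higher and 5 a lower level in the sham LV, and 0 were DEGs by limma (1 higher and 2 lower at the unadjusted limit, beside 8.19% and 9.63% of all tested genes). Alas1, the form of the first enzyme used outside red cells, had means of 52.7 ± 9.60 FPKM in sham LV and 73.1 ± 9.18 in sham RV (SD, n = 3), the opposite order to Alas2. Tmem14c, a mitochondrial porphyrin transporter, had 99.3 ± 9.16 and 94.0 ± 10.7 FPKM, and Urod, an enzyme of the pathway, 57.6 ± 8.61 and 47.1 ± 1.21.

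Of 12 tested red cell membrane and skeleton genes, 1 rose and 2 fell in sham LV relative to sham RV, where 3.86% of all tested genes were DEGs. The water channel Aqp1, also made by endothelium, was higher (log2 difference 0.48, SE 0.12, adjusted p = 0.0494 by limma). The spectrin Sptb (−1.35, SE 0.29) and the ankyrin Ank1 (−0.60, SE 0.13) were lower, both at an adjusted p of 0.0387 by limma. Sptb was 3.28, 3.77 and 3.69 FPKM in sham LV and 14.3, 8.44 and 8.03 in sham RV, without overlap. Spectrin and ankyrin are also made in muscle. Tmod1, which caps actin filaments in red cells and in muscle, had 73.6 ± 21.5 FPKM in sham LV and 110 ± 4.83 in sham RV, and the glycophorin Gypc 37.2 ± 3.61 and 36.6 ± 2.32 (SD, n = 3). Rhd (2.40 ± 0.716 and 1.33 ± 0.255 FPKM) and Kel (1.535 ± 0.238 and 1.057 ± 0.394) were higher in sham LV. Their Pearson's r with the mean of the 8 genes over the 12 libraries was 0.89 and 0.75. Of the 12 membrane and skeleton genes, 5 were higher and 7 lower in sham LV.

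The factors that drive red cell formation ranged widely in level. Lmo2 had 16.4 to 34.4 FPKM, Zfpm1 14.3 to 18.5 and Tal1 3.73 to 6.52. Gata1, the master regulator of erythroid genes, had 4 reads in all 12 libraries together, and Klf1, which switches on beta globin, had 0.408 to 2.28 FPKM. Of 8 tested factors, 1 was a DEG, where 3.86% of all tested genes were: Lmo2, used in both blood and endothelial cells, was higher in sham LV (log2 difference 0.67, SE 0.13, adjusted p = 0.0332 by limma). Zfpm1, a partner of Gata1, and Tal1, a partner of Lmo2, had 15.8 ± 0.655 and 5.92 ± 0.590 FPKM in sham LV and 17.3 ± 1.74 and 4.37 ± 0.592 in sham RV (SD, n = 3). Among 15 tested genes of reticulocytes and red cell metabolism, 12 were higher in sham LV and 0 were DEGs by limma (5 higher at the unadjusted limit, beside 8.19% of all tested genes). Bnip3l, which clears mitochondria from reticulocytes, had an adjusted p of 0.0435 but a log2 difference of 0.36, below the fold change required. Prdx2, an abundant red cell peroxidase, had 508 ± 18.2 FPKM in sham LV and 437 ± 39.6 in sham RV, and Alox15 134 ± 18.9 and 88.6 ± 23.4 (SD, n = 3).

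None of the genes of these 4 lists was a DEG in VO LV against sham LV, VO RV against sham RV or VO LV against VO RV by limma. At the unadjusted limit in VO LV against sham LV, which 9.27% of all tested genes passed as higher and 6.44% as lower, 4 of the 12 membrane genes were higher and 1 lower. Of the 12 heme synthesis genes 2 were higher, of the 8 factors 1 was higher and 2 lower, and of the 15 reticulocyte genes 2 were lower. For the difference of responses, Sptb (2.17), Ank1 (0.95), Xk (0.84) and the mitochondrial transporter Abcb10 (0.70) were DEGs with a higher response in the LV. Lmo2 (−0.83) and Bnip3l (−0.51) were DEGs with a lower one, which is the direction of the 8 genes. Each of the calls named for the wider lists was lost when sham RV replicate 1 or 2, sham LV replicate 1 or 2, or VO LV replicate 2 was left out. Of the 12 calls among all listed genes in each comparison, 0 were kept without a filter or with the replicate number as a block. With the number within treatment as a block, 1 was kept for sham LV against sham RV and 5 for the difference of responses.

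The clearance and oxygen-sensing lists gave 0 DEGs in all 6 comparisons by limma. Hmox1, which breaks down heme, averaged 16.1 ± 0.855 FPKM in the LV and 12.5 ± 0.879 in the RV of sham animals, and 13.2 ± 1.10 and 18.3 ± 4.34 after VO (SD, n = 3). The ferritin light chain Ftl1 averaged 629 ± 145 and 460 ± 44.2 FPKM in sham LV and sham RV, and the hypoxia factor Epas1 87.6 ± 6.61 and 73.9 ± 6.69. Egln3, of the same oxygen-sensing list, went the other way, at 44.0 ± 8.66 and 59.8 ± 8.23 FPKM. Of the 8 tested oxygen-sensing genes 3 were higher and 5 lower in sham LV (median log2 difference −0.18). At an unadjusted p with the fold limit, 2 of 8 clearance genes were higher and 1 of 8 oxygen-sensing genes lower in the sham LV, beside 8.19% and 9.63% of all tested genes. Epo itself had at most 0.342 FPKM in any library. Mb read 5750 to 6011 FPKM in sham LV and 5068 to 6146 in sham RV, with overlap, and both tested tissue globins gave 0 DEGs.

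Most markers of other cells that come with blood and vessels were also higher in sham LV than in sham RV. All 5 tested neutrophil genes were higher in sham LV, 1 of them a DEG (S100a8, log2 difference 1.14), where 3.86% of all tested genes were DEGs. The summed FPKM of the 10 listed was 58.4 to 72.3 in sham LV and 29.3 to 45.3 in sham RV, then 40.6 to 65.2 in VO LV and 36.5 to 66.6 in VO RV. Of these 10 genes the granule gene Ltf was listed at 0 in every library, as were the platelet gene Gp1bb and the ferritin heavy chain Fth1, which every cell uses, so that a listed 0 need not mean a lack of transcripts. All 4 tested lymphocyte genes were higher in sham LV, with 1 DEG (Cd79a, 1.06), and the summed FPKM of the 10 listed was 5.24 to 9.25 against 3.19 to 4.50. Cd79a had only 2 to 25 reads in a library and a mean of 0.673 FPKM, close to the filter. All 8 endothelial genes were higher in sham LV, with 4 DEGs (Tie1, Esam, Emcn and Kdr), at 568 to 622 against 390 to 432 FPKM in sum. Their sum was 443 to 493 FPKM in VO LV and 409 to 518 in VO RV. All 9 macrophage genes had a higher mean log2 level in sham LV too (Cd14 by 0.0035 only, with a lower mean FPKM), with 0 DEGs by limma (1 at the unadjusted limit), and of the 3 tested platelet genes 2 were higher. All 8 fibroblast genes were lower, with 0 DEGs, and of 12 cardiomyocyte genes 8 were lower, with 2 DEGs, Ryr2 (−0.94) and Atp2a2 (−0.82). In VO LV against sham LV all 5 neutrophil, all 8 endothelial, 8 of 9 macrophage and 3 of 4 lymphocyte genes were lower, with 0 DEGs by limma (1, 3, 0 and 2 at the unadjusted limit, beside 6.44% of all tested genes). Of the fibroblast genes 7 of 8 were lower too (median −0.20), with 0 DEGs and 0 at the unadjusted limit. Cardiomyocyte genes went the other way, with 9 of 12 higher, a median log2 fold change of 0.39 and 0 DEGs (5 higher and 1 lower at the unadjusted limit, beside 9.27% and 6.44% of all tested genes), among them Ryr2 (0.91), Atp2a2 (0.74) and Myh6 (0.55). In VO RV against sham RV all 9 macrophage genes were higher (median 0.43, 4 at the unadjusted limit, beside 1.85% of all tested genes), as were all 5 neutrophil, 7 of 8 endothelial, 7 of 8 fibroblast (median 0.16) and 3 of 4 lymphocyte genes (0 at that limit). There 9 of 12 cardiomyocyte genes were lower (3 at the limit, beside 3.06% of all tested genes), and 0 of these genes were DEGs by limma. Between VO LV and VO RV, 7 of 8 fibroblast genes were lower in the LV (6 at the unadjusted limit, beside 3.56% of all tested genes), all 9 macrophage genes were lower (2 at the limit) and all 12 cardiomyocyte genes were higher (3 at the limit, beside 3.85%). Of the others 4 of 5 neutrophil, 5 of 8 endothelial and 2 of 4 lymphocyte genes were higher there, and 0 marker genes were DEGs by limma. The DEG calls of these marker genes at baseline were lost without sham LV replicate 1 or 2, sham RV replicate 1 or 2 or VO LV replicate 2, without a filter, and with the replicate number as a block. Over the 12 libraries, Pearson's r with the mean of the 8 was 0.49 to 0.73 for the tested neutrophil genes. It was −0.15 to 0.80 for endothelial, −0.51 to 0.32 for macrophage and −0.66 to −0.43 for fibroblast genes. Among cardiomyocyte genes it was 0.81 for Tnni3, 0.72 for Tnnt2 and 0.71 for Myl3, and −0.51 to 0.15 for the rest. The part of any of these cells in the erythroid values was not tested.

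Transcript length also moved with the comparison. Genes under 1000 bases, which include Hba1, Hba2, Hbb and Ahsp at 556 to 660 bases, had a median log2 difference of 0.19 between sham LV and sham RV (2386 genes), and the longest of 4 length classes, with 2571 genes, a median of −0.08. In VO LV against sham LV the medians were −0.15 and 0.04. Slc4a1 has 4835 bases and Epb42 has 3990. The part of length in the values of the 8 genes was not tested beyond one alternative. With the length trend of each library removed, all 8 genes were higher in sham LV (median 0.64, 2 past the unadjusted limit) and lower in VO LV (median −0.32).

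The 10 genes whose log2 levels followed the mean of the 8 most closely over the 12 libraries, among 12660 genes with a mean of at least 1 FPKM, were named by Pearson's r as a description. They were AC113925.2 (0.95), B4galnt1 (0.95), Cox8a (0.95), Mrpl14 (0.94), Mrpl54 (0.94), Alox15 (0.93), Ndufa8 (0.92), AABR07024041.1 (0.92), Serf2 (0.92) and Uqcrb (0.91). Both hemoglobin beta-2 entries were among them, and Alox15 is the 15-lipoxygenase known from reticulocytes. Cox8a, Ndufa8 and Uqcrb are parts of the mitochondrial respiratory chain and Mrpl14 and Mrpl54 of the mitochondrial ribosome. Libraries that share group, depth and scaling stand behind each of these values.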

How the data were processed

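RNA of LV and RV free walls of sham and VO rats at P7 was sequenced from poly-T selected libraries. Per the labels and methods, the authors aligned filtered reads with HISAT2 2.0.5, counted them per gene with featureCounts 1.5.0-p3 and deposited FPKM made from those reads. The genome build, strand setting and handling of reads with several matches are not given in the sources used here. The 8 genes and all lists were chosen with earlier results of these data known.

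Whole reads were recovered from the FPKM (100% of values under 200 reads lay within 0.02 of a whole number), 14121713 to 16871371 per library. FPKM were divided by median-ratio size factors and, after adding 0.5, log2 transformed. A mean FPKM of 0.5 was required, leaving 13910 genes, which were fitted in R 4.3.3 with limma 3.58.1 (trend) as 1 model of the 4 groups, without a block. DEGs had a fold change over 1.3 and an adjusted p (Benjamini-Hochberg, all tested genes) under 0.05. Fold changes on this scale understate those of low genes. FPKM of single genes were compared by a two-sided exact permutation test, whose smallest p is 0.10. Simulated data with known changes served as a test of the fit. Genes named are the 8, other hemoglobin genes, up to 3 of each list by mean FPKM, any list gene that was a DEG, and the 10 most alike. Hmox1, Gata1, Klf1, Epo, Ltf, Gp1bb, Fth1, Cd14, Sln and Bmp10 were named after their values were seen, and 1 gene that the rule would name is not reported here. Promoters are RefSeq's, on GRCr8, found for 6 of 8 genes, with Hba1, Hba2 and LOC287167 matched by synonym and gene order. Alternatives were other scalings, pseudocounts, filters and fits, voom on the recovered reads, replicate blocks and each library left out. Removing the length trend, and leaving out both RV libraries with atrial RNA, were added after seeing the data.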

Additional observations from a re-analysis of the deposited data

Results flagged for a closer look

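For none of the 8 genes did the LV and RV responses to VO differ by limma's adjusted test. Among the listed genes around them, those given here had a difference of the LV and RV log2 fold changes that passed it. The difference was 2.17 for Sptb, 0.95 for Ank1, 0.84 for Xk, 0.70 for the heme synthesis gene Abcb10, −0.83 for Lmo2 and −0.51 for Bnip3l. Among cardiomyocyte genes it was 1.61 for Ryr2, 1.23 for Atp2a2, 1.18 for Myh7 and 0.89 for Myh6, and for the macrophage gene C1qb it was −0.92. Sptb, Ank1 and Xk were listed with the red cell membrane, but spectrin and ankyrin are also made in muscle. Pearson's r with the mean of the 8 genes over the 12 libraries was −0.45 for Sptb, −0.28 for Ank1 and −0.45 for Xk. All of these calls were lost when sham RV replicate 1 or 2, sham LV replicate 1 or 2, or VO LV replicate 2 or 3 was left out, and 4.19% of all tested genes passed the same test.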

How the results depend on the processing

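Under each of 28 ways of processing, 0 of the 8 genes were DEGs in any comparison, and every gene tested was higher in the LV at baseline and lower in the LV after VO. Epb42 was not tested where a mean FPKM of 1 was required, and the separate fit of 2 groups could not give the difference of responses. The difference of responses was below 0 for every gene in every such setting that gave it. Fold changes of some genes in VO RV against sham RV and in VO LV against VO RV turned with single libraries. With 1 library, or both RV libraries with atrial RNA, left out, VO RV against sham RV ranged from −0.30 to 0.37 for Hbb (0.51 without both), −0.28 to 0.28 for Hbb-b1 (0.39 without both), −0.16 to 0.38 for Alas2 (0.49 without both), −0.35 to 0.20 for Slc4a1 (0.25 without both) and −0.24 to 0.74 for Ahsp. VO LV against VO RV ranged from −0.42 to 0.17 for Hba1, −0.50 to 0.082 for Hba2, −0.14 to 0.44 for Hbb, −0.11 to 0.39 for Alas2, −0.043 to 0.45 for Slc4a1 and −0.059 to 0.18 for Epb42. With array weights VO RV against sham RV was 0.27 for Hbb-b1 and 0.18 for Slc4a1, and with the length trend removed it was −0.052 for Hbb. The cause was not tested. As a share of recovered reads, hemoglobin genes took 1.10% in the LV and 0.640% in the RV of sham animals, and 0.766% and 0.812% after VO, and as a share of summed FPKM, in the same order, 2.66%, 1.67%, 1.97% and 2.04%, since short genes weigh more in FPKM. Genome-wide values did not show that replicate numbers pair the LV and RV libraries. Deviations of same-numbered libraries correlated at 0.045, 0.038 and 0.123 in sham and 0.054, −0.051 and −0.219 in VO over 13910 genes, and not every library correlated best with its own number. In sham, LOC287167 was ordered alike by number in both ventricles, 284, 80.5 and 1.35 FPKM in the LV and 174, 55.3 and 6.28 in the RV, and it was lowest in number 2 of both VO ventricles, so that the pairing remains unsettled. A replicate block by number took the DEGs between sham LV and sham RV from 537 to 3, or to 106 with the number within treatment, and those for the difference of responses from 583 to 1 or 246. The block changed no call among the 8 genes. DEGs between sham LV and sham RV numbered 8 without a filter, 312 in a separate fit and 1321 with array weights, and those for the difference of responses 21 without a filter and 1047 with array weights. Depth limits Epb42 and Ahsp most, with as few as 21 and 22 reads in a library.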
